A study of Mus musculus with 3 samples.

Results

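Among single cells dissociated from mouse otic vesicles, a mesenchymal population was defined by the transcripts of Foxd1, Wfdc1, Vtn, Flrt2, Apod and Lix1. A barcode was a member if it had at least 1000 detected genes, at most 10% mitochondrial UMIs, no UMI of Epcam (an epithelial adhesion molecule), and at least 1 UMI of 4 or more of these 6 genes. A UMI (unique molecular identifier) marks 1 captured transcript. The rule took 1283 of 26130 kept barcodes, of which 419 came from the CD library, 423 from WT replicate 1 and 441 from WT replicate 2. These 6 genes chose the members, so their levels are given as a description and support nothing.

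The libraries hold pooled E10.5 otic vesicles, from which the inner ear develops, digested to single cells, and they contain mesenchyme as well as epithelium. CD replicate 1 came from Sox9 heterozygotes of genotype Sox9Y440X/+, in which 1 allele of the transcription factor gene Sox9 carries the premature stop Y440X. WT replicates 1 and 2 were wild type. The labels give no strain, sex, litter or number of embryos, so p-values reflect only how far these libraries differ, which may be technical. With 1 CD library, genotype and pool cannot be told apart. No permutation test was used, as 1 library against 2 cannot go below a p of 0.333.

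The libraries held 186439890 UMIs over 12322 barcodes (CD replicate 1), 157373393 over 8330 (WT replicate 1) and 202584468 over 16649 (WT replicate 2). They shared 28 to 55 barcodes pairwise. Members were deep, with a median of 25271 UMIs in CD replicate 1, 24428 in WT replicate 1 and 21062 in WT replicate 2. Other mesenchyme had 17241, 17703 and 15498.5 UMIs in the same libraries. Deep cells reach UMIs of 4 genes more readily: read on cells thinned to 5000 UMIs, the rule took 138 cells in CD replicate 1, 170 in WT replicate 1 and 191 in WT replicate 2. Other mesenchyme means the 2436 barcodes without Epcam that had at least 5 of 8 general mesenchyme markers, at most 1 marker of any other class, and were not members.

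As background, mesenchyme around the otic vesicle comes from cranial mesoderm and neural crest, forms the otic capsule, and exchanges signals with the epithelium. Foxd1 encodes a forkhead transcription factor best known from kidney stroma. Vtn encodes vitronectin, an adhesive matrix glycoprotein bound by integrins. Wfdc1 encodes a secreted WAP-domain protein. Flrt2 encodes a membrane protein that acts in adhesion and axon guidance, and Apod encodes apolipoprotein D, a lipid-binding lipocalin. Wnt/beta-catenin signalling turns on its own feedback genes through TCF/LEF factors, and retinoic acid is degraded by the enzyme that Cyp26a1 encodes.

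The promoters of 2 genes on which results below turn are shown first, Sp5 (a Wnt feedback gene, higher in members than in other mesenchyme) and Cyp26a1 (lower in members). Each is 300 bases, from 250 before to 50 after the annotated start, from RefSeq on GRCm38.p6, plus strand. The counts were made on another build (mm39), and only the sequence is used here. Capitals in Sp5 mark the TCF/LEF core CTTTGA, searched on both strands. Capitals in Cyp26a1 mark a match to the retinoic acid response element TGAACTNNNNNTGAACT, a direct repeat spaced by 5 bases, also searched on both strands.
Sp5, chr2:70474673-70474972: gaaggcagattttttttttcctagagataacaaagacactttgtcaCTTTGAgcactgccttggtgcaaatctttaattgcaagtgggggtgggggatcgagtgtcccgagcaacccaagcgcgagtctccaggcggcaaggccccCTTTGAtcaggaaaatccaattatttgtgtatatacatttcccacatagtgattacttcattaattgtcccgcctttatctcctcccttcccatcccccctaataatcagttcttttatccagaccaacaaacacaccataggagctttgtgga
Cyp26a1, chr19:37697558-37697857: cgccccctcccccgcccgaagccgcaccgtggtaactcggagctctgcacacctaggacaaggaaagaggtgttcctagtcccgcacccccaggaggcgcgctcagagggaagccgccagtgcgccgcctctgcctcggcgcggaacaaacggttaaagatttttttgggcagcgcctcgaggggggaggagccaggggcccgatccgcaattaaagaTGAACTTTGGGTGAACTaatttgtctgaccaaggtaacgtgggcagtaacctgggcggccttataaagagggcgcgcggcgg
Sp5 held 2 TCF/LEF cores, which began 204 and 104 bases before the start, while the windows of the feedback genes Axin2, Nkd1 and Nkd2 held 0. Lef1, a TCF/LEF factor gene, had 4 windows. That at chr3:131156044-131156343 also held 2 cores, which began 180 and 120 bases before its start, and the others held 0. CTTTGA was found in 16.0% of the 32851 windows of the same length. Cyp26a1 held 1 response element, which began 32 bases before the start and was found in 0.0244% of the windows (8 of 32851). A match describes these letters and is no evidence of binding.

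The members held mesenchymal transcripts, and few of them expressed all 6 defining genes. At least 5 of 8 general mesenchyme markers were detected in 408 of 419 CD members, 411 of 423 members of WT replicate 1 and 417 of 441 of WT replicate 2. All 6 defining genes were detected in 46, 104 and 57 of them. Flrt2 was detected in 98.8% of CD members and in 97.2% and 98.0% of WT members. Foxd1 was detected in 96.2% of CD members and in 97.6% and 93.2% of WT members. Vtn, by contrast, was detected in 27.4% of CD members, against 38.1% and 23.1% of WT members. Wfdc1 was detected in 69.2% of CD members and in 79.7% and 76.9% of WT members. The name of the population thus describes Foxd1 and Wfdc1 in most cells and Vtn in a minority of them.

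**Figure D1:**
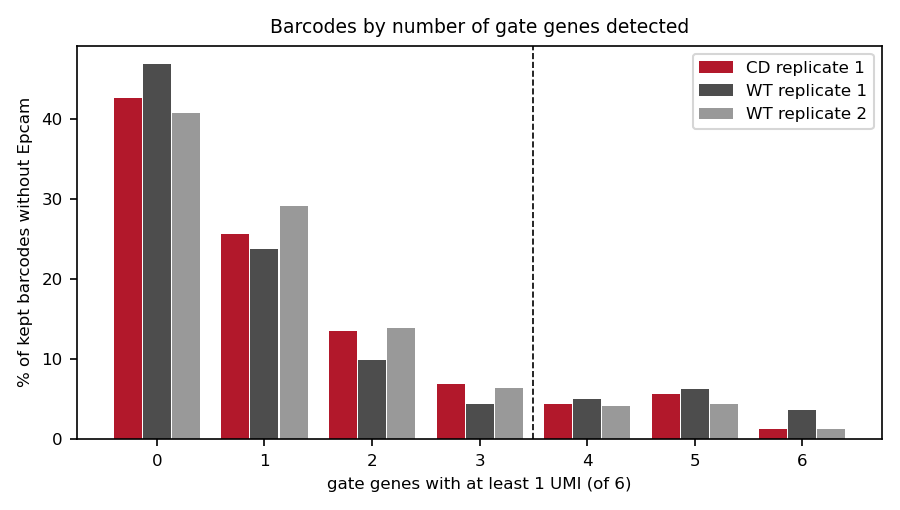
Share of kept barcodes without Epcam (y axis, %) by the number of the 6 defining genes with at least 1 UMI (x axis), for CD replicate 1, WT replicate 1 and WT replicate 2. Barcodes right of the dashed line were members; the share with 4 genes was 4.36% in CD replicate 1, 5.06% in WT replicate 1 and 4.16% in WT replicate 2.

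Free RNA gives stray UMIs, so the same shares were read in otic epithelium, thinned to 5000 UMIs per cell to remove the depth gap. Vtn was then detected in 13.0% of CD members and in 17.9% and 13.3% of WT members. In other mesenchyme the share was 0.735% in CD and 1.36% and 1.03% in WT, and in otic epithelium 0.198% in CD and 0.241% and 0.409% in WT. Foxd1 after thinning was detected in 68.9% of CD members and in 75.7% and 64.2% of WT members. Its share in other mesenchyme was 21.6% in CD and 38.8% and 19.2% in WT, against 1.94%, 1.73% and 3.04% in otic epithelium. Foxd1 was therefore present well above the epithelial level in other mesenchyme too.

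The cells just inside and just outside the rule are compared here by level. Levels are CPM, the UMIs of a gene scaled to 1000000 UMIs of the summed cells. With 4 defining genes, Foxd1 stood at 238 CPM in CD and at 286 and 202 CPM in WT replicates 1 and 2. With 3 defining genes, it stood at 190 CPM in CD and at 262 and 144 CPM in WT. Wfdc1 was at 29.4 CPM in CD and at 44.4 and 45.8 CPM in WT just inside, and at 5.55 CPM in CD and at 15.4 and 11.8 CPM in WT just outside. Both are defining genes, so their rise largely follows from the rule. Tbx18, outside the rule, was at 39.6 CPM in CD and at 27.9 and 14.7 CPM in WT just inside. Just outside, it was at 25.9 CPM in CD and at 23.3 and 8.44 CPM in WT. Ebf2 went the other way, with 67.6, 56.5 and 48.9 CPM just inside, against 112, 79.7 and 79.3 CPM just outside.

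Members made up 4.90% of kept barcodes in CD replicate 1 (exact Clopper-Pearson 95% interval 4.45% to 5.38%, which covers counting error only). They made up 6.44% (5.86% to 7.07%) in WT replicate 1 and 4.0% (3.64% to 4.39%) in WT replicate 2. As a share of all mesenchyme they were 30.1% in CD, against 48.4% and 30.3% in WT. The CD share of barcodes lay between the WT shares, and that of mesenchyme within 1 percentage point of the lower one. With all UMIs, a difference between CD and WT was therefore not larger than the gap between the WT libraries. With the rule read on cells thinned to 5000 UMIs, members were 1.79% of barcodes in CD, against 2.78% and 2.04% in WT. As a share of mesenchyme they were then 12.7% in CD, against 27.8% and 16.4% in WT. Both CD shares were then below those of either WT library, and nearer to WT replicate 2.

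Compared with other mesenchyme, members had more transcript of most matrix and Wnt response genes counted and of Zic1 and Zic4, and less of Cyp26a1, Crabp1, Crabp2, Irx1, Irx2, Ebf2 and Meis2. This comparison uses the contrast that chose the members and is a description with no test. Of the 2436 other mesenchyme barcodes, 1637 had UMIs of all of Mecom, Prrx1 and Ebf2, so the comparison is mostly with such cells. Of 2893 genes at 50 CPM or more in 1 of the populations, 32 were more than 2-fold higher in members in all 3 libraries (1.11%), and 9 were more than 2-fold lower (0.311%). Defining genes were not left out of these counts, and the rule itself raises them in members. Fold values below are those of the library where the ratio was nearest to 1, after adding 1 CPM.

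Wfdc1, a defining gene, led the list at 75.0 CPM in CD members and 106 and 125 CPM in WT members, against 1.59 CPM in CD and at 4.53 and 4.06 CPM in WT in other mesenchyme. Outside the defining genes, Fabp7, a fatty acid binding protein gene of neural and glial progenitors, was at 59.3 CPM in CD members and 90.0 and 93.0 CPM in WT members. In other mesenchyme Fabp7 was at 6.57 CPM in CD and at 12.3 and 4.49 CPM in WT (at least a 6.86-fold ratio in each library). Sparcl1, which encodes a matricellular protein, was 4.59-fold and Slc1a3, a glutamate transporter gene, 3.61-fold higher by the same measure. Zic1 and Zic4, zinc finger transcription factor genes of the dorsal neural tube and cranial mesenchyme, were 3.30-fold and 3.74-fold higher. These genes were picked for a high ratio in every library. That members and other mesenchyme did not overlap for them largely follows from this choice.

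Other mesenchyme was gated against cells with 2 or more markers of another cell class, and members were not. Such cells made up 19.3% of CD members and 17.5% and 33.3% of WT members. Without them, Fabp7 was at 51.7 CPM in CD members and 92.4 and 96.5 CPM in WT members. Nefm, a neurofilament gene among the leading genes, was then at 14.8 CPM in CD members and 22.1 and 15.4 CPM in WT members, against 13.4, 11.9 and 14.3 CPM in other mesenchyme. Without these cells Nefm was close to its level in other mesenchyme in CD and WT replicate 2 and still above it in WT replicate 1, and Fabp7 stayed above it in every library.

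**Figure D2:**
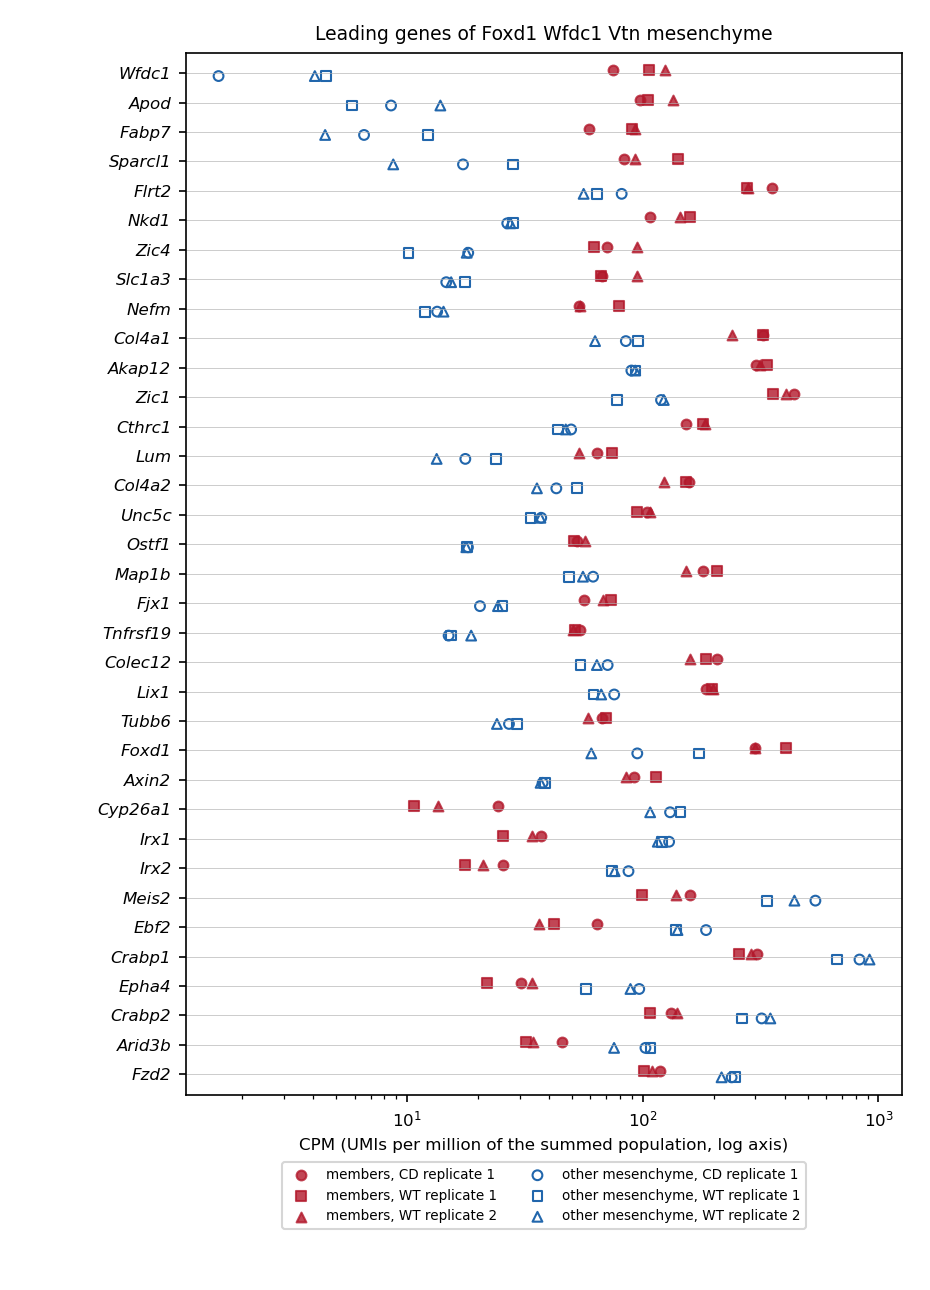
CPM (x axis, log) of the 25 genes with the highest and the 10 with the lowest ratio of members to other mesenchyme, by gene (y axis). Filled red symbols are members and open blue symbols other mesenchyme; shape gives the library. Wfdc1 lay between 75.0 and 125 CPM in members and between 1.59 and 4.53 CPM in other mesenchyme.

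Wnt feedback genes were higher in members. Of 19 Wnt response and antagonist genes, 8 reached 10 CPM in all libraries of 1 population, and 6 of these were higher in members in every library (the share over all 7898 such genes was 36.0%). Nkd1, an inhibitor of Dishevelled, was at 107 CPM in CD members and 158 and 144 CPM in WT members, against 26.6 CPM in CD and at 28.2 and 27.4 CPM in WT in other mesenchyme. Axin2, a scaffold of the beta-catenin destruction complex, was at 91.8 CPM in CD members and 114 and 85.0 CPM in WT members, against 37.6, 38.5 and 36.9 CPM in the same libraries of other mesenchyme.

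Sp5, the gene of the promoter with 2 TCF/LEF cores above, was at 17.6 CPM in CD members and 30.4 and 31.8 CPM in WT members, against 1.70 CPM in CD and at 2.62 and 1.91 CPM in WT in other mesenchyme. Rspo3, a secreted enhancer of Wnt signalling, was at 116 CPM in CD members and 93.3 and 89.5 CPM in WT members. In other mesenchyme Rspo3 was at 35.9 CPM in CD and at 38.6 and 39.8 CPM in WT. Wnt5a, a ligand best known for signalling without beta-catenin, went the other way, with 86.7 CPM in CD members and 49.9 and 75.3 CPM in WT members, against 126, 79.1 and 99.7 CPM in other mesenchyme. Sfrp1, a secreted Wnt antagonist, had overlapping levels in the populations.

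Most matrix genes were higher in members. Of 24 matrix and basement membrane genes at 10 CPM, 19 were higher in members in every library and 3 lower (36.0% and 24.0% of all such genes). Col4a1, a type IV collagen chain, was at 324 CPM in CD members and 325 and 240 CPM in WT members, against 84.8 CPM in CD and at 95.6 and 62.8 CPM in WT in other mesenchyme. Lama1, the laminin alpha 1 chain, was at 66.4 CPM in CD members and 60.1 and 46.2 CPM in WT members, against 10.9, 13.0 and 7.81 CPM. Nid1, which links laminin to type IV collagen, was at 101 CPM in CD members and 96.1 and 79.2 CPM in WT members, against 51.9, 47.0 and 37.7 CPM. Postn, a matricellular protein gene of fibrous tissue, was among those lower in members, with 12.6 CPM in CD and at 17.6 and 12.4 CPM in WT, against 38.7, 31.1 and 27.9 CPM.

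Genes of retinoic acid handling were split, with 3 of 7 higher and 4 lower in members in every library (36.0% and 24.0% of all such genes). Cyp26a1 was at 24.2 CPM in CD members and 10.7 and 13.5 CPM in WT members, against 131 CPM in CD and at 145 and 108 CPM in WT in other mesenchyme. Crabp1 and Crabp2, cellular retinoic acid binding protein genes, were also lower in members, by 2.61-fold and 2.42-fold at least. Rdh10, which oxidises retinol, was at 26.3 CPM in CD members and 21.1 and 20.8 CPM in WT members, against 9.63, 9.06 and 8.31 CPM. Members thus had more Rdh10 transcript, and less of the genes for retinoic acid binding and breakdown named here, than other mesenchyme.

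Some transcription factor genes also differed. Of 11 cranial mesoderm factor genes at 10 CPM, 5 were higher and 5 lower in members in every library. The shares over all such genes were 36.0% higher and 24.0% lower. Meis2, Irx1, Irx2 and Ebf2, homeobox and EBF factor genes, were lower in members by 3.15-fold, 3.34-fold, 3.30-fold and 2.87-fold at least. Tbx18, a T-box gene of periotic mesenchyme, was at 43.9 CPM in CD members and 43.9 and 28.2 CPM in WT members, against 9.91 CPM in CD and at 14.2 and 3.45 CPM in WT. Hoxa2, which patterns the second pharyngeal arch, was at 19.5 CPM in CD members and 10.9 and 12.7 CPM in WT members, against 64.6, 42.7 and 46.9 CPM. Of 6 chondrogenic genes at 10 CPM, 2 were higher and 2 lower in members in every library, against the same shares. Col2a1, the main cartilage collagen gene, had overlapping levels in the populations. It was at 228 CPM in CD members and 181 and 234 CPM in WT members, against 195, 195 and 183 CPM.

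The members were not uniform. Clustering of the kept cells not called as doublets (29 Leiden clusters) placed 58.7% of CD members and 63.8% and 55.6% of WT members in a cluster led by Vtn, Wfdc1 and Lamc3. Another cluster, with Col1a1 and Ptx3 among its 3 leading genes, held 30.5% of CD members and 22.7% and 29.5% of WT members. Both clusters were mesenchyme-like by their markers. The clusters were made from the same transcripts, so the levels below describe them and are not tested.

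Vtn was at 84.2 CPM in CD and at 81.2 and 75.5 CPM in WT in members of the Vtn-led cluster, against 2.69 CPM in CD and at 2.03 and 1.99 CPM in WT in members of the Ptx3 cluster. In the Ptx3 cluster members Vtn was thus of the order of its level in other mesenchyme, and the name holds for them without its Vtn component. Sparcl1 (8.10-fold), Tbx18 (6.56-fold), the chemokine gene Cxcl12 (4.87-fold) and Col4a1 (3.47-fold) were higher with Vtn. Foxd1 was at 407 CPM in CD and at 537 and 424 CPM in WT in the Vtn-led members, against 158 CPM in CD and at 195 and 133 CPM in WT in the Ptx3 cluster members.

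The Ptx3 cluster members were higher in other genes. Msx1 and Msx2, homeobox genes induced by BMP signals, were higher in the Ptx3 cluster members by 4.58-fold and 5.71-fold at least. Crabp2 was 7.51-fold and Ptx3, a secreted pentraxin gene, 8.93-fold higher by the same measure. Wfdc1, Apod and Lix1 differed less, between 1.13-fold and 1.67-fold higher in the Vtn-led members. Crabp1 was at 139 CPM in CD and at 88.7 and 99.0 CPM in WT in the Vtn-led members, against 542, 441 and 606 CPM in the Ptx3 cluster members.

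**Figure D3:**
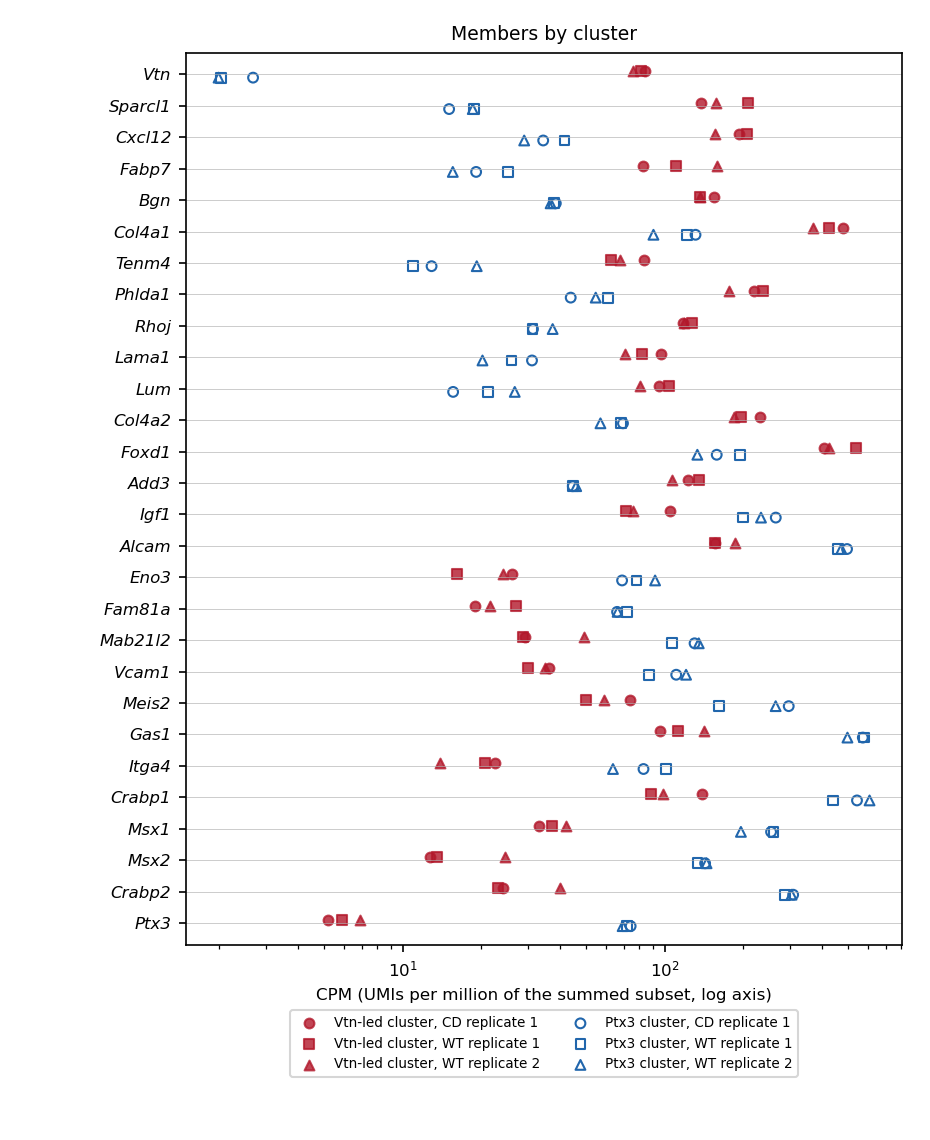
CPM (x axis, log) of 28 genes (y axis) in members of the Vtn-led cluster (filled red) and members of the Ptx3 cluster (open blue), summed per library; shape gives the library. Vtn lay between 75.5 and 84.2 CPM in the Vtn-led and between 1.99 and 2.69 CPM in the Ptx3 cluster members, and Crabp1 showed the reverse order.

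The comparison of CD with WT asks what the Sox9 allele goes with in these cells. UMIs were summed per library over the members and tested with edgeR's quasi-likelihood test, Benjamini-Hochberg adjusted over the 13209 genes that passed a filter on low counts. The test has 1 residual degree of freedom, from the WT pair. It takes the spread of the single CD library to be that of WT. At an adjusted p under 0.05, 5 genes were higher in CD and 0 lower (0.0379% of genes tested), with 304 genes at an unadjusted p under 0.05. This one-sided split did not hold under other settings: 2 genes were higher and 8 lower without barcodes called as doublets, with none of the 5 among them, 4 and 6 with counts thinned (1 shared), and 16 and 13 without members carrying markers of another class (2 shared). DESeq2 called 1 of them, Hbb-bt (0.00514%). The median log2 fold change over all genes was 0.01.

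Sox9 itself, a regulator of cartilage and of the otic placode, was at 387 CPM in CD members and 220 and 266 CPM in WT members (log2 fold change 0.62 ± 0.17 SE, adjusted p = 0.838, edgeR). The CD value lay above both WT values by more than the gap between them, and it missed the threshold over all genes. With counts thinned to 5000 UMIs per cell it passed (log2 fold change 0.78, adjusted p = 0.0199, edgeR), and in the 10 other alternative settings with a test it did not (adjusted p 0.0686 to 1). In other mesenchyme Sox9 was at 320 CPM in CD and at 244 and 215 CPM in WT. The counts are 3' tags of both alleles, so they do not check the Y440X change. Sox5 and Sox6, which act with Sox9 in cartilage, were at 41.9 and 11.2 CPM in CD members. In WT members Sox5 was at 51.2 and 54.7 CPM and Sox6 at 14.0 and 15.1 CPM, with adjusted p of 1 for both (edgeR). Sox10 and Sox8, neural crest and glial factors, stayed at or under 5.77 CPM in members of all 3 libraries.

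The 5 genes past the threshold were transcripts of macrophages and red cells, and a few cells held most of their UMIs. They were chosen after their values were seen. Mrc1, the mannose receptor of macrophages, was at 10.1 CPM in CD members and 0.991 and 0.524 CPM in WT members (log2 fold change 3.65 ± 0.44 SE, adjusted p = 0.00214, edgeR). Of its 113 UMIs in CD members, 96.5% lay in 3 cells, and the 3 CD members with at least 2 macrophage markers held 109 of them. Pf4, a chemokine gene of macrophages and megakaryocytes, was at 7.80 CPM in CD and at 0.360 and 0.629 CPM in WT (adjusted p = 0.00313, edgeR). Ccl4, a macrophage chemokine gene, had 62 UMIs in 2 CD cells, against 0 and 4 UMIs in the WT libraries.

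The whole macrophage list followed them. Its 7 genes summed to 43.9 CPM in CD members and to 20.4 and 10.8 CPM in WT members, with no gene at 0 in any library, and 0 of 7 passed the threshold (median log2 fold change 1.81). In other mesenchyme, where cells with macrophage markers were left out, the sum was 0.906 CPM in CD and at 0.715 and 2.71 CPM in WT. Scrublet, a doublet caller, marked 8 CD members, and these held 94.7% of the Mrc1 UMIs and 85.8% of the Hbb-bt UMIs. Hbb-bt, an adult-type beta globin gene, was at 116 CPM in CD members and 44.2 and 34.8 CPM in WT members (log2 fold change 1.51 ± 0.18 SE, adjusted p = 0.00214, edgeR). Without the marked barcodes its log2 fold change was -0.44, and that of Hbb-bs, another adult-type beta globin gene, was -1.05, neither past the threshold, while the embryonic globin genes Hba-x (-2.24) and Hbb-y (-2.11) fell (adjusted p = 0.0357 each, edgeR). Without members carrying markers of another class, by contrast, 7 globin genes rose, among them Hbb-bt (2.32, adjusted p = 1.50e-23, edgeR). These globins were named after their values were seen, and their direction depended on which barcodes were left out. Without the marked barcodes, Mrc1, Pf4 and Ccl4 no longer passed the filter on low counts.

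**Figure D4:**
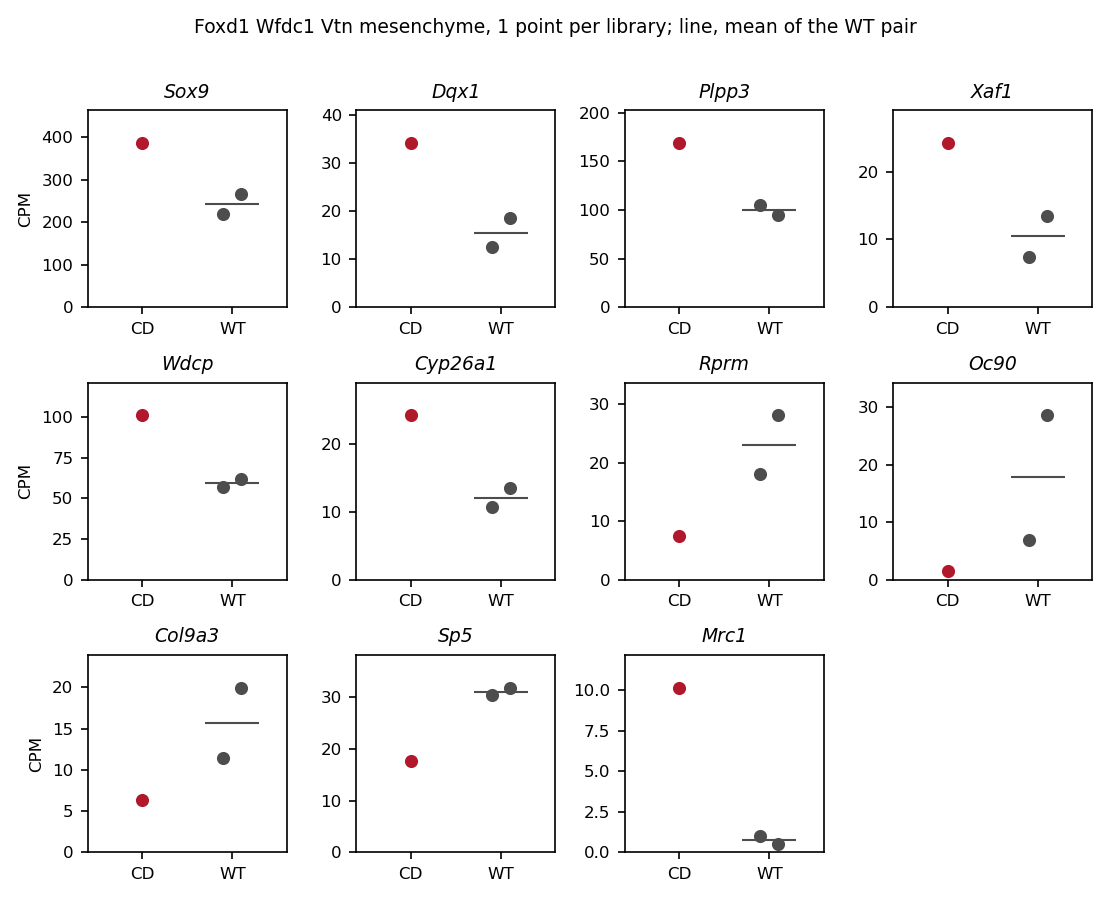
CPM (y axis, from 0) in members for CD (left, red) and WT (right, grey), 1 point per library; the line is the mean of the WT pair. Sox9 is at 387 CPM in CD and at 220 and 266 CPM in WT; of the 11 genes, Mrc1 alone passed the threshold.

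Of the genes with a mean of at least 10 CPM over the 3 libraries, none passed the threshold apart from globins, and genes of smallest p in each direction are given as values. Dqx1, a gene of the DEAD/H helicase family, was at 34.3 CPM in CD members and 12.5 and 18.7 CPM in WT members (adjusted p = 0.353, edgeR). Plpp3, which encodes a lipid phosphatase, was at 169 CPM in CD members and 105 and 95.1 CPM in WT members (adjusted p = 0.463, edgeR). Wdcp was at 101 CPM in CD and at 57.3 and 62.0 CPM in WT. For all 3 the CD library lay above both WT libraries by more than their gap.

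Xaf1, an apoptosis-associated gene, was at 24.2 CPM in CD members and 7.48 and 13.5 CPM in WT members, and 48.1% of its CD UMIs lay in 3 cells. Cyp26a1, whose promoter is shown above, was at 24.2 CPM in CD members and 10.7 and 13.5 CPM in WT members (log2 fold change 0.95 ± 0.24 SE, adjusted p = 0.553, edgeR). Its UMIs lay in 80 of 419 CD members and in 42 of 423 and 55 of 441 WT members. The higher Cyp26a1 of CD members came with more cells carrying the transcript. With 4 defining genes, it was at 47.0 CPM in CD and at 19.1 and 26.6 CPM in WT. With 5 defining genes, it was at 11.2 CPM in CD and at 9.77 and 4.35 CPM in WT. With all 6, it was at 3.26 CPM in CD, between the WT values of 3.01 and 4.09 CPM.

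On the other side, Rprm, a p53-induced cell cycle arrest gene, was at 7.53 CPM in CD members and 18.0 and 28.1 CPM in WT members (log2 fold change -1.66 ± 0.30 SE, adjusted p = 0.0785, edgeR). Sp5 was at 17.6 CPM in CD and at 30.4 and 31.8 CPM in WT (a log2 fold change -0.87 ± 0.22 SE, adjusted p = 0.553, edgeR). The WT values of Sp5 lay close together and the CD value below both.

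Oc90 and Col9a3 are also transcripts of other tissues. Oc90, the main otoconial matrix protein gene of otic epithelium, was at 1.61 CPM in CD members and 7.03 and 28.6 CPM in WT members (adjusted p = 0.124, edgeR). In otic epithelium it was at 89.0 CPM in CD and at 550 and 1015 CPM in WT, and in other mesenchyme at 1.64 CPM in CD and at 5.24 and 22.7 CPM in WT (adjusted p = 7.01e-15, edgeR). At least 2 otic markers were detected in 4.06% of CD members, against 5.20% and 20.6% of WT members, and the part of free or epithelial RNA in the Oc90 value was not tested. The otic list summed to 13.0 CPM in CD members and to 16.0 and 52.4 CPM in WT members, with 1 of its 10 genes at 0 in CD and none in WT. Col9a3, a cartilage collagen gene also expressed in otic epithelium, was at 6.37 CPM in CD members and 11.4 and 19.9 CPM in WT members.

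By list, no pathway moved past the threshold in members. Beside the haemoglobins (2 of 7 genes higher, 0 lower), every list had 0 of its tested genes past the threshold. Wnt response and antagonist genes had a median log2 fold change of -0.01 over 17 tested genes, with 7 above 0 and 10 below. Nkd1, at 107 CPM in CD members and 158 and 144 CPM in WT members, and Sp5 had the smallest p of that list, while Axin2 had a log2 fold change of -0.17 and Lef1, the TCF/LEF factor gene, 0.00. Rspo3 had 0.30. Wnt ligands had a median of -0.22 over 12 genes.

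The chondrogenic list had a median of -0.26 over 13 genes, with 4 above 0 and 9 below. Col2a1, a target of SOX9 in cartilage, had a log2 fold change of 0.08 ± 0.18 SE, with the CD level between the WT levels. Guidance and adhesion genes had 21 of 22 above 0 and a median of 0.16, and matrix genes 17 of 27 above 0 and a median of 0.13. Other lists leaned further. Hedgehog response genes had 10 of 11 above 0 and a median of 0.29, and POU and periotic factor genes 12 of 14 and 0.26. Retinoic acid genes leaned the other way, with 5 above 0, 10 below and a median of -0.32. These medians stand beside 0.01 over all genes, with the CD library outside both WT libraries for 63.5% of all genes tested. Foxc2, a forkhead factor gene of cranial mesoderm, was at 33.2 CPM in CD members and 21.9 and 17.5 CPM in WT members (log2 fold change 0.70 ± 0.22 SE, adjusted p = 1, edgeR). Tcf15, a bHLH gene of paraxial mesoderm, was at 5.11 CPM in CD members and 9.55 and 13.4 CPM in WT members (adjusted p = 0.734, edgeR).

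Splitting the members by cluster changed what passed the threshold. This split was chosen after seeing the data. In the Vtn-led members, 21 of 11947 genes passed (0.176%), 10 higher and 11 lower in CD. Cyp26a1 rose to 29.3 CPM in CD, against 8.10 and 6.86 CPM in WT (a log2 fold change 1.89 ± 0.28 SE, adjusted p = 2.24e-08, edgeR). Fst, which encodes the activin antagonist follistatin, rose (1.07 ± 0.22 SE), as did Hoxa2 (1.19 ± 0.30 SE), Xaf1 and Limch1. Over all members, the Fst levels given below differed more between the WT libraries than between CD and WT replicate 1. The SE borrows spread across genes and does not measure that gap. Rprm (-1.72 ± 0.30 SE), Col9a3 (-1.51 ± 0.32 SE), Oc90 (-3.16 ± 0.41 SE) and Eif3j2 (-3.29 ± 0.34 SE) fell. Over all members, the fold changes of Rprm, Col9a3 and Oc90 were similar, at -1.66, -1.34 and -3.49. For these genes the split changed the call more than the fold change.

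In the Ptx3 cluster members, 7 of 10756 genes passed (0.0651%), 4 higher and 3 lower in CD. Wdcp rose by 0.97 ± 0.18 SE and Oc90 fell (-3.99 ± 0.70 SE). Cyp26a1 was at 3.50 CPM in CD and at 6.51 and 7.61 CPM in WT there (log2 fold change -1.06, not past the threshold). Whether the CD effect differs between the clusters was not tested.

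The CD effect was compared between members and other mesenchyme with an interaction term that keeps the library as a block. It differed for 21 of 13576 genes (0.155%), 11 with a higher and 10 with a lower value in members (edgeR). In other mesenchyme alone, 17 of 13663 genes passed (0.124%), 9 higher and 8 lower in CD, and DESeq2 called 1 (0.00511%). Both populations come from the same libraries, so each comparison's own values are given side by side.

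Cyp26a1 had a CD effect of 0.95 ± 0.24 SE in members and of -0.01 in other mesenchyme, where it stood at 131 CPM in CD and at 145 and 108 CPM in WT (difference 0.95 ± 0.16 SE, adjusted p = 2.67e-05, edgeR). Of 9 alternative settings, 4 ended the call for Cyp26a1 (difference 0.57 to 1.31 over the 9). With the rule read on thinned cells, no gene passed. Fst was at 45.7 CPM in CD members and 34.7 and 11.8 CPM in WT members, against 19.0 CPM in CD and at 37.7 and 6.46 CPM in WT in other mesenchyme (difference 1.07 ± 0.18 SE, adjusted p = 2.32e-05, edgeR). Its WT levels differed among themselves in both populations in the same order.

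Xaf1 had an effect of 1.16 in members and of -0.73 in other mesenchyme (difference 1.85 ± 0.23 SE, adjusted p = 5.04e-10, edgeR). Wdcp (difference 0.62) and Limch1, an actin-binding protein gene (difference 0.44), were also higher in members. Genes with a lower difference were mostly low in level. Aldh1a3, a retinoic acid synthesising enzyme gene, was at 3.32 CPM in CD members and 3.06 and 10.2 CPM in WT members, against 8.61 CPM in CD and at 2.86 and 7.81 CPM in WT. Rgs5, a pericyte gene, was at 1.35 CPM in CD members and 2.70 and 2.62 CPM in WT members, against 4.36, 1.79 and 0.985 CPM. Vtn, a defining gene, also passed, and the choice of members sets its level in both populations.

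**Figure D5:**
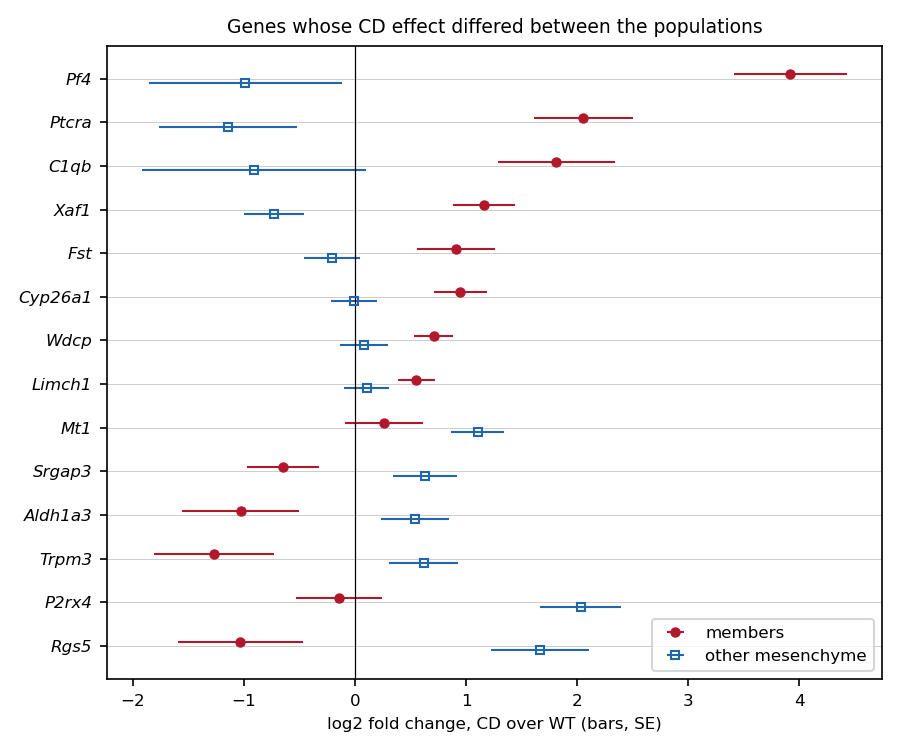
Log2 fold change of CD over WT (x axis, bars SE) in members (red) and in other mesenchyme (blue), for the named genes (y axis) whose effect differed between the populations. Cyp26a1 lies at 0.95 in members and at -0.01 in other mesenchyme.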

How the data were processed

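Droplet 3' single-cell libraries were read with Cell Ranger 6.0 on build mm39, per the submitters' processing notes. As deposited, each matrix is a table of raw UMI counts for 32285 features in each barcode, and the authors applied no normalisation, judging by its whole-number values. Barcodes were kept and members gated as described. Members and gene lists were chosen with earlier results of these data known. Doublets were called with Scrublet in scanpy 1.11.5 and kept in the main comparison. Cells not so called were clustered with leidenalg 0.10.2 (2000 variable genes, 30 principal components, 15 neighbours, resolution 1). Counts were summed per library and population and tested with edgeR 4.0.16 (TMM, filterByExpr, quasi-likelihood) in R 4.3.3, with Benjamini-Hochberg adjustment at 0.05; DESeq2 1.42.0 was an alternative. SE is the fold change over the square root of F. The test borrows spread across genes (median prior 15.6 degrees of freedom in members, 196 for the difference). Levels are CPM without TMM. The WT libraries differed by a chi-square of 13.7 per degree of freedom over 12523 genes in members, and were treated as separate samples.

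Genes were named by rule: the 6 defining genes, Sox9, Sox10, Sox5, Sox6 and Sox8, the genes past the threshold with at least 10 CPM or the 5 of smallest p each way, from each list up to 4 genes past it or otherwise 2 of smallest p, the 2 highest of each list, the 35 leading genes, and up to 5 genes each way whose CD effect differed. Predicted, mitochondrial, ribosomal, haemoglobin, Xist and Y-linked genes were passed over, except where a text value is said to be chosen after it was seen. Other genes of the lists, of the clusters and past the threshold in a cluster were named after their values were seen. Promoter windows are RefSeq entries on GRCm38.p6, found for 5 of the 6 defining genes. Some genes that the rule names are not reported here.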

Additional observations from a re-analysis of the deposited data

Results flagged for a closer look

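The CD effect differed between Foxd1 Wfdc1 Vtn mesenchyme and other mesenchyme, by the interaction test in edgeR, for 15 named genes. The difference on the log2 scale was 1.85 for Xaf1, 4.71 for Pf4, 3.15 for C1qb, 1.07 for Fst and 3.31 for Ptcra. It was -2.69 for Rgs5, -2.22 for P2rx4, -1.95 for Trpm3, -1.66 for Aldh1a3 and -1.33 for Srgap3. Smaller differences that passed were 0.95 for Cyp26a1, 0.62 for Wdcp, 0.44 for Limch1 and -0.77 for Mt1, a metallothionein gene, and that of Vtn, which helped to choose the members, was 1.72. Over 7 to 9 alternative settings the call was kept in 7 for Fst, in 6 for Rgs5 and P2rx4, in 5 for Cyp26a1, Wdcp, Xaf1 and Srgap3, in 4 for Pf4, Ptcra, Aldh1a3 and Limch1, and in 3 for C1qb, Trpm3 and Mt1. Of the UMIs of C1qb, a complement gene of macrophages, 96.8% in CD members lay in 3 cells, and of those of Ptcra 78.2%. In other mesenchyme P2rx4, an ATP-gated channel gene, rose to 7.70 CPM in CD, against 1.43 and 2.03 CPM in WT (adjusted p = 7.46e-05, edgeR), while in members it was at 4.22 CPM in CD and at 3.97 and 5.03 CPM in WT.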

How the results depend on the processing

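The number of genes past the threshold in members (5) was 0 with the rule read after thinning to 5000 UMIs (321 at an unadjusted p under 0.05), 1 with 3 defining genes or DESeq2, and 3 with the looser filter of 500 genes and 20% mitochondrial UMIs. It was 10 with 5 defining genes, with counts thinned or without Scrublet calls, 29 without members carrying 2 markers of another class, 37 without a gene filter and 21 in the Vtn-led members. Rprm and Oc90, not past it in the main comparison, passed it in 4 and 5 of 9 alternatives. Named after their values were seen, Eif3j2 and the predicted gene Gm10076 also passed it in 5, and Ttr in 4. Ttr had UMIs only in members of WT replicate 1, with 90.1% of them in 3 cells. In other mesenchyme the count (17) was 1 with DESeq2, 2 without Scrublet calls, 3 with the looser filter and 4 with counts thinned. The count of differing CD effects (21) was 2 with 3 defining genes, 3 with counts thinned and 0 with the rule read after thinning (362 at an unadjusted p under 0.05). Named fold changes that reversed sign, none past the threshold under that setting, were Sox10 with 5 defining genes (0.092), the thinned rule (0.31) or without WT replicate 1 (0.015), Sox8 with 5 defining genes (0.55), Xaf1 with the thinned rule (-0.74) or in Ptx3 cluster members (-0.033), Cyp26a1 in Ptx3 cluster members (-1.06), and Hbb-bt (-0.44) and Hbb-bs (-1.05) without Scrublet calls. Differences that reversed were Xaf1 (-0.046) and C1qb (-3.56) with the thinned rule, P2rx4 with 3 defining genes (0.89) and Mt1 without members of other classes (0.18). The causes were not tested. The CD minus WT share of barcodes (-0.32 percentage points) was 0.90 without WT replicate 1, -1.54 without WT replicate 2 and 0.47 with 3 defining genes, and the share of mesenchyme (-9.21) was -0.17 and -18.3. Of the 35 leading genes, 27 to 33 stayed under the alternatives. With a WT library left out no residual degree of freedom remains, so fold changes then have no test. No paired analysis was possible because the groups share a single replicate number. Intervals and counts reflect counting error only, and low genes limit what the 1 CD library can show.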

Other observations

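Most Notch genes counted were also higher in members. The neuronal gene Stmn2 was higher in every library only while members with markers of another class were kept. Of 9 Notch genes at 10 CPM, 7 were higher in members than in other mesenchyme in all 3 libraries (36.0% over all such genes). Hey2, a Notch target gene, was at 19.0 CPM in CD members and 25.1 and 16.9 CPM in WT members, against 3.45 CPM in CD and at 4.29 and 2.83 CPM in WT. Stmn2, a gene of growing axons, was at 36.2 CPM in CD members and 69.5 and 42.1 CPM in WT members, against 7.87, 3.69 and 12.9 CPM. At least 2 markers of neuroblasts and neurons were detected in 7.64% of CD members and in 4.73% and 9.98% of WT members. Stmn2 is itself one of these markers. Without the cells that had 2 or more markers of any other class, Stmn2 was at 6.05 CPM in CD members and 4.31 and 9.71 CPM in WT members. Stmn2 was then below its level in other mesenchyme in CD and WT replicate 2, and above it in WT replicate 1. Hey2 was then at 19.9 CPM in CD members and 26.4 and 18.4 CPM in WT members, above other mesenchyme in every library.

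Hedgehog, IGF and cell cycle genes were counted in the same way. Of 7 hedgehog response genes at 10 CPM, 0 were higher and 5 lower in members (36.0% and 24.0% over all such genes), and Gas1, a co-receptor gene, was at 264 CPM in CD members and 230 and 263 CPM in WT members, against 293, 263 and 316 CPM. Of 9 IGF genes, 3 were higher and 4 lower, and of 23 cell cycle genes 2 were higher and 9 lower, against the same shares, and Top2a, a proliferation gene, was at 599 CPM in CD members and 574 and 534 CPM in WT members, against 557, 602 and 498 CPM.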
